A study of Mus musculus with 30 samples.

Results

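Samples of a mouse model of oral carcinogenesis were split by their level of a single salivary gland transcript. Across all 30 bulk RNA-seq samples, the samples compared were chosen by their level of Bpifb2, a secreted protein of the BPI fold family that salivary glands make. Its level is given as CPM, the count of a gene divided by the column total and multiplied by 1000000. The 10 samples with the highest Bpifb2, called Bpifb2-rich here, were compared with the 10 lowest, called Bpifb2-poor, and the 10 in between were kept out of that comparison. Bpifb2 therefore chose the groups, and its own values are a description. At the edges, hyperplasia sample A06 entered the rich group with 64.8 CPM and invasive carcinoma sample C09 stayed outside with 50.4 CPM, while invasive carcinoma sample C08 entered the poor group with 0.607 CPM and C03 of the same stage stayed outside with 0.676 CPM.

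All mice were male C57BL/6J, and the labels give each sample the same exposure from an age of 6 weeks, namely the carcinogen 4NQO in the drinking water at 100 ug/mL over 10 weeks. That entry also stands on the samples labelled Normal, and no unexposed group is labelled. The labels sort samples into 5 pathological stages and do not say where in the mouth each was cut, how deep it reached or whether samples came from separate animals, so a p-value here reflects how far these samples vary and no more. The Bpifb2-rich group held 1 sample labelled Normal, 3 with hyperplasia, 1 with dysplasia, 3 with carcinoma in situ and 2 with invasive carcinoma. The Bpifb2-poor group held 1, 2, 3, 2 and 2 of these, in the same order. Tissue is labelled as oral squamous cell carcinoma throughout. The squamous keratin Krt13 had 16990 to 26350 CPM in rich samples and 16080 to 29410 CPM in poor samples, and the fast muscle myosin Myh4 had 2321 to 12040 CPM in rich samples and 6155 to 14760 CPM in poor samples, so each sample held squamous epithelium and skeletal muscle RNA. Total counts were 17725604 to 23340952 in rich samples and 19753677 to 28023098 in poor samples.

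Minor salivary glands lie between the muscle fibres and under the lining of the tongue and mouth. Mucous acini package gel-forming mucins such as Muc5b and Muc19, with trefoil and disulfide-handling proteins that travel with them. Serous acini secrete enzymes and host-defence proteins. On the rodent tongue, the serous von Ebner glands beneath the taste papillae are known for lingual lipase, the product of Lipf. Acinar cells share a water channel, chloride and potassium channels, a large endoplasmic reticulum and a set of secretory transcription factors, and their fluid drains through ducts lined by simple epithelium.

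The promoters of 4 gland genes are shown because they stand for the 2 slopes fitted over all 30 samples: Gp2 had its larger slope on the ranking gene Bpifb2, and Bpifb1 had its larger slope on Lipf. Each window runs from 250 bases before to 50 bases after the RefSeq start on GRCm38.p6, at chr2:153874795-153875094 on the plus strand for Bpifb2, chr7:119459223-119459522 on the minus strand for Gp2, chr2:154190568-154190867 on the plus strand for Bpifb1 and chr19:33960998-33961297 on the plus strand for Lipf. Capitals mark matches on either strand to TATAAA (the TATA box), to ACGTGG (a core bound by factors such as Xbp1 and the Creb3-like family) and to TGTTTGC (a forkhead-type core).
Bpifb2: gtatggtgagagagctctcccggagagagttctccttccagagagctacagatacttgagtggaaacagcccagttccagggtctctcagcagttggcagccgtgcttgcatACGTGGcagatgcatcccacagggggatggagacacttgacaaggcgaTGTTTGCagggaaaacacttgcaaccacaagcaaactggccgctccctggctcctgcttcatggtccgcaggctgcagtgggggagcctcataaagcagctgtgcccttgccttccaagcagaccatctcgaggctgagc
Gp2: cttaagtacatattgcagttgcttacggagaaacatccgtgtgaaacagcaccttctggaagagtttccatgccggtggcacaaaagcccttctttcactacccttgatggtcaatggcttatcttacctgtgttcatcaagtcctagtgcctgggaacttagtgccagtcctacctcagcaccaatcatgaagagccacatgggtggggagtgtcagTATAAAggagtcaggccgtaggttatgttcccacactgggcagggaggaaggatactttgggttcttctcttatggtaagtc
Bpifb1: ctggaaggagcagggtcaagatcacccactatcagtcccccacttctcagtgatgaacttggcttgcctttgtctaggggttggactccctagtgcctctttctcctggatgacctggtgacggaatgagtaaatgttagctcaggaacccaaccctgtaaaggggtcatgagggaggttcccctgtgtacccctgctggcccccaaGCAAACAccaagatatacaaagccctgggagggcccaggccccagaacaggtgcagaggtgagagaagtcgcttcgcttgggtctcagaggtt
Lipf: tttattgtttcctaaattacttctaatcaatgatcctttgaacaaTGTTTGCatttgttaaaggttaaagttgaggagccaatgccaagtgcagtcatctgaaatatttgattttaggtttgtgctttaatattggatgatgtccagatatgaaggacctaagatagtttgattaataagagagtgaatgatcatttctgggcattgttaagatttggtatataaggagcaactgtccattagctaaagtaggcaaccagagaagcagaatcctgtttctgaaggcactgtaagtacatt
The TATAAA match in Gp2 began 32 bases before the start, at -32. Bpifb2 held ACGTGG at -138 and TGTTTGC at -90, Bpifb1 held the reverse complement of the forkhead core at -43, and Lipf held that core at -205. Among 32851 RefSeq windows of this length, 13.62% held TATAAA, 8.31% held ACGTGG and 5.07% held TGTTTGC. The motifs were chosen after the expression values were seen, and a match describes letters only.

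Bpifb2 ran from 64.8 CPM in A06 through a median of 713 CPM to 4040 CPM in dysplasia sample B01 among the rich samples, against 0 to 0.607 CPM with a median of 0.252 CPM among the poor samples. Muc5b, the main gel-forming mucin of saliva (chr7:141839070-141873084), had 254 CPM at the lowest, 3704 CPM at the median and 24516 CPM at the highest in rich samples, against 0.536, 2.13 and 21.2 CPM in poor samples. Every rich sample stood above every poor sample for this mucin, by a log2 fold change of 10.82 ± 0.92 (SE, adjusted p = 2.11e-06). Gp2, a glycoprotein of secretory granules, had 61.5, 517 and 2827 CPM in rich samples against 0, 0.320 and 2.23 CPM in poor samples. Its groups did not overlap either, with a log2 fold change of 10.95 ± 0.84 (adjusted p = 1.59e-06). In bulk samples, fewer gland cells and less RNA per gland cell cannot be told apart.

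The label of a salivary-rich and a salivary-poor group held for the markers Muc5b and Gp2 but not for every gland gene. Genes on the mucous and serous secretion lists, counted together with Bpifb2, took 0.168% to 5.53% of counts in rich samples, with a median of 2.89%. In poor samples they took 0.0176% to 0.722%, with a median of 0.0244%. Bpifb2 chose the groups, so part of this difference was set by that choice. The ranges overlapped. Rich carcinoma in situ sample C02 had 0.168% and rich A06 had 0.422%, while dysplasia sample B05, by Bpifb2 a poor sample, had 0.722%. The groups are therefore named by Bpifb2. Bpifb2-rich samples were found at all 5 stages, and within a stage Bpifb2 spread over orders of magnitude. It had a median of 0.828 CPM in normal samples (0.0502 to 717), 5.65 CPM in hyperplasia (0 to 2460), 0.771 CPM in dysplasia (0.180 to 4040), 46.2 CPM in carcinoma in situ (0.0434 to 922) and 25.5 CPM in invasive carcinoma (0.0462 to 1076).

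**Figure D1:**
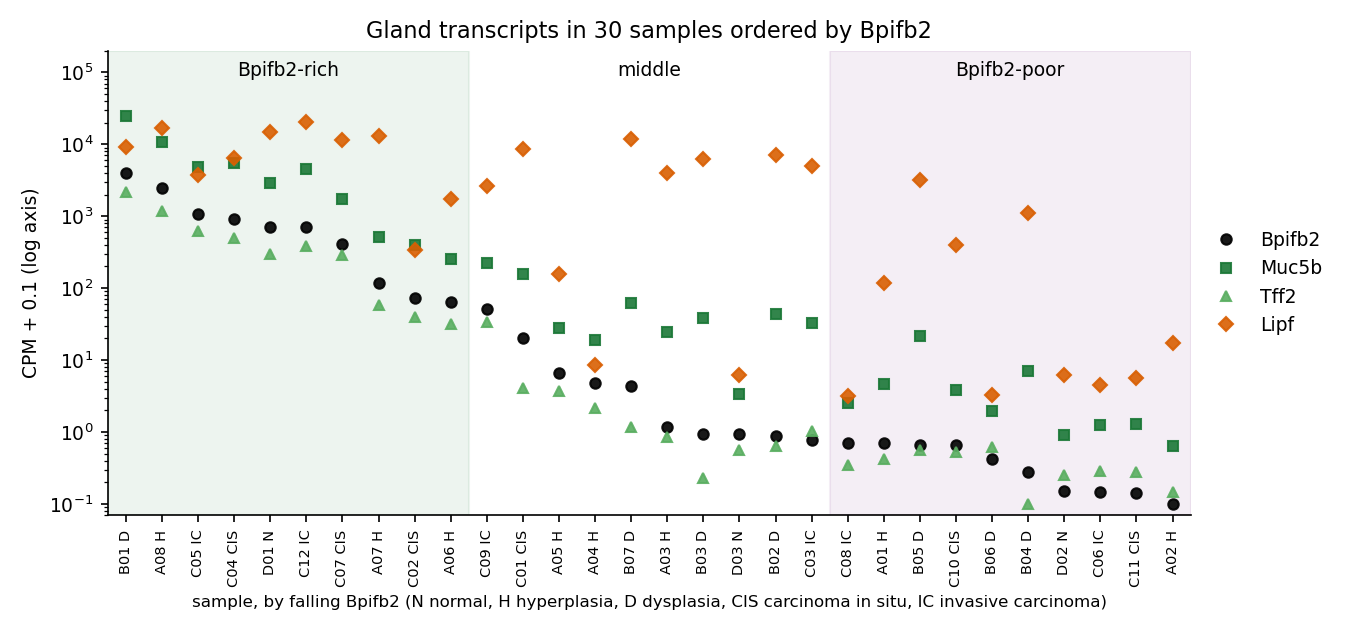
CPM plus 0.1 on a log axis for Bpifb2, Muc5b, Tff2 and Lipf in each of the 30 samples, ordered by falling Bpifb2, with the stage after each sample code and shading over the 10 Bpifb2-rich and the 10 Bpifb2-poor samples. Muc5b and Tff2 are higher in every rich sample than in any poor sample, while Lipf stays at 4041 to 11820 CPM in 6 of the 10 middle samples and reaches 3218 CPM in poor sample B05.

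Of 16073 genes tested, 432 rose in Bpifb2-rich samples (2.69%) and 6 fell (0.0373%), by edgeR's quasi-likelihood test with stage as covariate and Benjamini-Hochberg adjustment at 0.05. At least 2-fold differences made up 245 of the increases and 1 of the decreases. The median log2 fold change over all tested genes was -0.01. A p here is the association of a gene with the Bpifb2 split at a given stage, not the effect of a labelled condition. In 46 genes every rich sample lay above every poor sample (0.286% of those tested), and in 0 genes did every rich sample lie below every poor sample (0%). Dysplasia sample B01, which carried the most Bpifb2, weighed on the counts: without it 228 genes rose and 18 fell, and among the genes described below Ano1, Slc12a2, Spdef, Txndc5, Tmed3, Cfd, Sox10, Il19, Alox8 and Sh3rf2 were no longer called. B01 was also the only rich dysplasia sample, so without it the 3 poor dysplasia samples no longer informed the difference. Gland genes on the lists below led to the choice of Bpifb2 as the ranking gene, so their counts describe what came with it and add no evidence of their own.

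**Figure D2:**
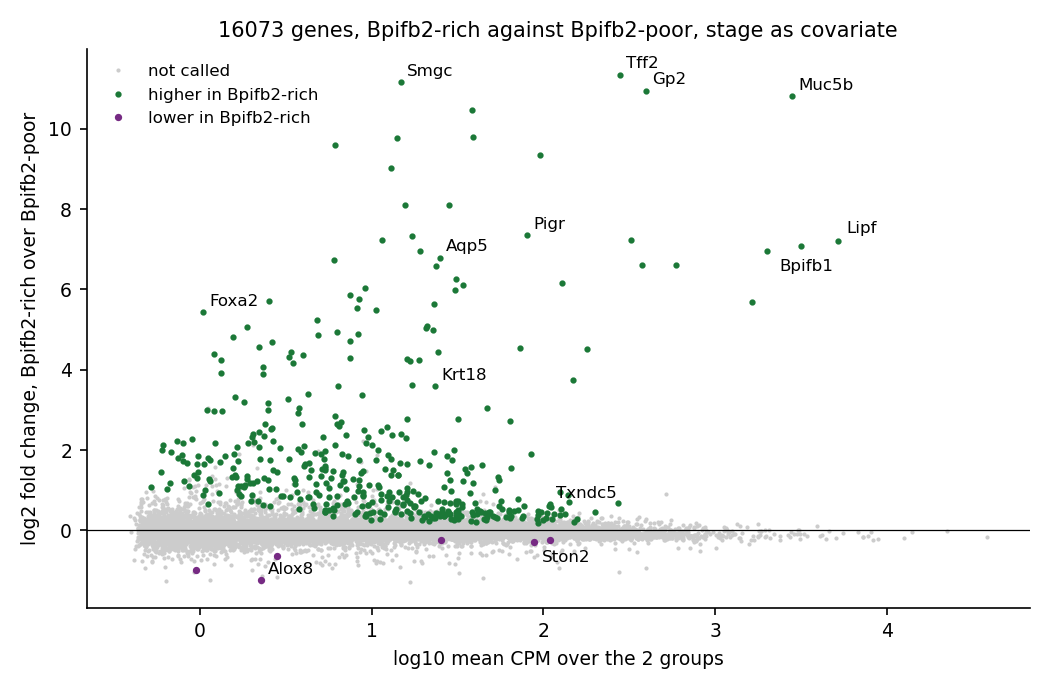
Log2 fold change of Bpifb2-rich over Bpifb2-poor samples against the log10 mean CPM of the 2 groups for 16073 genes. Green points are the 432 genes that rose and purple points the 6 that fell, and the largest increases, above 10 on the log2 scale, include Tff2, Gp2 and Muc5b.

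Mucous genes were among those with the largest fold changes. On the mucous secretion list, 9 of the 11 tested members rose and 0 fell, with a median log2 fold change of 5.85, and St3gal6 (0.02 ± 0.14) and Fut2 (0.15 ± 0.08) were not called. Tff2, a trefoil peptide secreted with mucins, had 31.5 CPM at the lowest, 344 CPM at the median and 2139 CPM at the highest in rich samples, against 0, 0.217 and 0.527 CPM in poor samples. Each rich sample exceeded each poor sample, and the log2 fold change was 11.35 ± 0.89 (adjusted p = 1.59e-06). Muc19, a gel-forming mucin of mouse sublingual and minor glands, had 5.53, 61.8 and 293 CPM in rich samples against 0.0399, 0.128 and 0.261 CPM in poor samples, a log2 fold change of 9.80 ± 0.84.

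Smgc, a secreted gland protein gene placed on the serous and antimicrobial list, had 2.03, 20.2 and 96.4 CPM in rich samples against 0, 0 and 0.0925 CPM in poor samples. Pooled over samples it had 6356 counts in the rich group and 3 counts in the poor group, a log2 ratio of 11.20 with a 95% counting interval of 9.65 to 13.47. In the annotation Smgc (chr15:91838265-91861438) lies within Muc19 (chr15:91838326-91934555) on the same strand apart from its first bases, so reads could be divided between them in a way that the counts do not show. Chst4, a sulfotransferase that acts on mucin-type glycans, reached a log2 fold change of 9.76 ± 1.01. Agr2, an endoplasmic reticulum protein needed for mucin folding, had 12.9, 134 and 586 CPM in rich samples against 0.0893, 0.355 and 0.759 CPM in poor samples (log2 fold change 9.34 ± 0.79).

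The mucin glycosylation enzymes rose less. Gcnt3, which branches O-glycan cores, differed by a log2 fold change of 5.72 ± 0.64, Galnt12 by 2.33 ± 0.36 and Galnt4 by 1.72 ± 0.27. Both Galnt enzymes start O-glycans and were above 0 in poor samples too, Galnt4 with means of 29.2 CPM in rich and 9.18 CPM in poor samples. Outside the list, Olfm4, a secreted olfactomedin glycoprotein, had 2.71, 12.9 and 146 CPM in rich samples against 0, 0.0357 and 0.255 CPM in poor samples, and Lman1l, related to a cargo lectin of the early secretory pathway, had 3.44, 39.2 and 209 CPM against 0.0502, 0.234 and 0.462 CPM. Muc5b kept its direction and call in each of 20 fits with a sample left out and in 10 other settings, with an edgeR, DESeq2 or limma-voom adjusted p of 0.00688 at most.

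Serous and antimicrobial genes rose as a group too, with wider spread among poor samples. Of 34 listed genes 20 passed the expression filter, 17 of them rose and 0 fell, with a median log2 fold change of 6.59. A gene seen mainly in the rich group could pass the filter through that group, so these counts describe the 20 tested genes, and 14 were not tested. Lipf, the lingual lipase gene (chr19:33961187-33976810), had 339 CPM at the lowest, 10360 CPM at the median and 20519 CPM at the highest in rich samples, against 3.03, 11.5 and 3218 CPM in poor samples. Of the rich samples, 8 exceeded every poor sample and C02 and A06 did not. Among the poor samples, 6 stayed under 20 CPM, while B05 had 3218 CPM and dysplasia sample B04 had 1112 CPM. The log2 fold change was 7.20 ± 1.599 (adjusted p = 0.0155).

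Several other serous products overlapped between the groups in the same way. Bpifb1, a BPI fold protein of airway and oral secretions, had 250, 6619 and 13824 CPM in rich samples against 2.19, 8.58 and 2036 CPM in poor samples (log2 fold change 7.07 ± 1.52, adjusted p = 0.0126). Dmbt1, a scavenger receptor protein of saliva that binds bacteria, had 49.9, 744 and 1456 CPM against 0.324, 1.17 and 235 CPM (6.61 ± 1.24). Amy1, salivary amylase, had 67.3, 3268 and 6279 CPM in rich samples against 15.8, 39.5 and 1117 CPM in poor samples (5.68 ± 0.99), and reads of the near-identical pancreatic copies could be counted to it or lost from it. Car6, the secreted carbonic anhydrase of saliva, rose by a log2 fold change of 5.54 ± 1.24, and lost its call in 6 of 20 fits with a sample left out. Pigr, the receptor that carries IgA across glandular epithelium, had 13.5, 107 and 500 CPM in rich samples against 0.0462, 0.259 and 9.26 CPM in poor samples, with no overlap (7.35 ± 0.81). Dcpp1, Dcpp2 and Dcpp3, secreted proteins of demilune and parotid cells, rose by 6.96 ± 0.85, 8.09 ± 1.03 and 6.58 ± 0.86, and as near-identical neighbours they may share reads. The call on Lipf needed the stage covariate: without it the log2 fold change was 4.35 (edgeR, adjusted p = 0.114), and with samples split at the Bpifb2 median of each stage it was 2.57 (adjusted p = 0.504, the highest over its alternatives). Leaving out normal sample D01 or D02 or hyperplasia sample A01 also ended it, with edgeR adjusted p of 0.0633, 0.0637 and 0.0553. Bpifb1 and Bpifa2 lost their calls without D01 or D02 too. D01 and D02 were the only normal samples compared, so leaving out either took the normal stage out of the difference. Those fits are therefore not separate checks, and both gave Lipf a log2 fold change of 6.664.

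The ranking gene lies in a cluster of 13 Bpif genes on chromosome 2 that spans 446 kb, and its members did not move together. Bpifb6, the next gene after Bpifb2 (chr2:153900388-153912795), had 0.845, 5.19 and 48.2 CPM in rich samples against 0, 0 and 0.0714 CPM in poor samples, and rose by a log2 fold change of 9.59 ± 1.01. Bpifa2, a surfactant-like protein of parotid and oral glands (chr2:154008265-154016079), had 6.85, 383 and 2016 CPM in rich samples against 0, 1.28 and 297 CPM in poor samples, a log2 fold change of 7.24 ± 1.55. Bpifa5, which lies between Bpifa2 and Bpifb1, had 257, 412 and 994 CPM in rich samples against 162, 481 and 829.5 CPM in poor samples, and its log2 fold change was -0.02 (adjusted p = 0.988). The 8 members with no value given here did not pass the expression filter, with highest values of 8.51 CPM or less in rich samples and 4.46 CPM or less in poor samples.

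**Figure D3:**
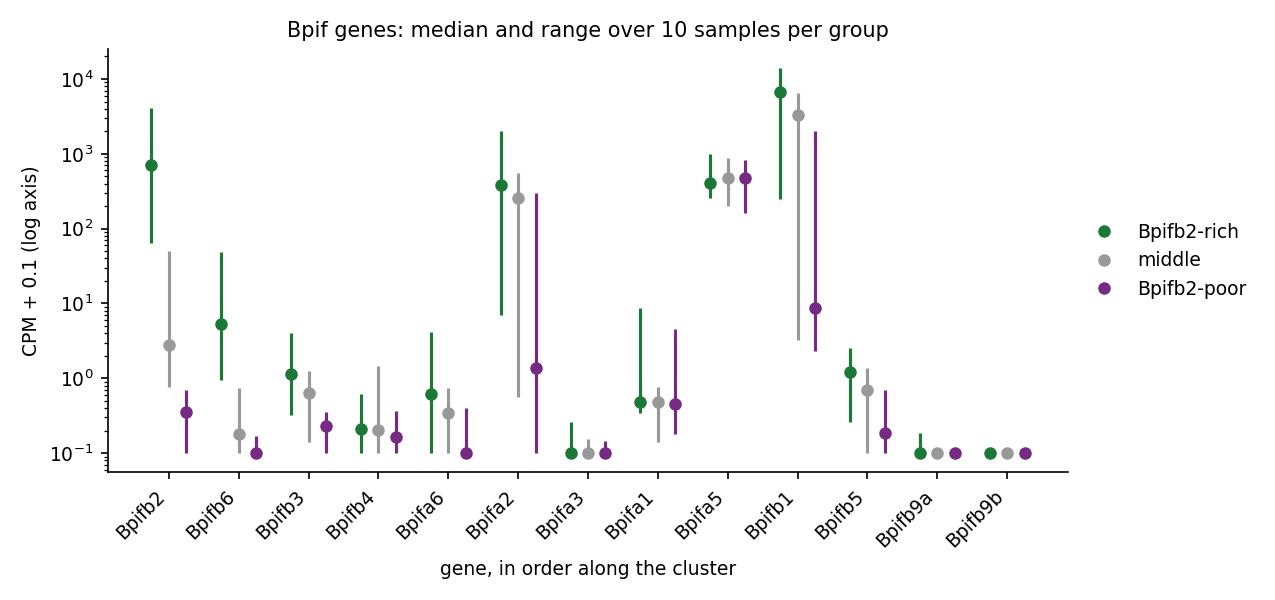
Median (point) and range (line) of CPM plus 0.1, on a log axis, over the 10 Bpifb2-rich, 10 middle and 10 Bpifb2-poor samples for the 13 Bpif genes in order along chromosome 2. Bpifb2 and Bpifb6 are low in the middle samples, Bpifa2 and Bpifb1 have middle medians of 254 and 3266 CPM, and Bpifa5 is level across the groups.

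The 10 middle samples, which the comparison had not used, gave a called slope on Bpifb2 for few of these genes. Their Bpifb2 ran from 0.676 to 50.4 CPM. Over 17744 genes, the slope of log2 expression on log2 Bpifb2 at a given stage was positive and called for 13 (0.0733%) and negative and called for 16. Of those 13, 6 were among the 432 genes that rose in rich samples, and these included Tff2 with a slope of 0.82 ± 0.07, Smgc with 0.92 ± 0.16, Muc19 with 0.72 ± 0.10, Lman1l with 0.54 ± 0.08 and Olfm4 with 1.43 ± 0.21 (SE). The markers Muc5b, with a slope of 0.36 (edgeR, adjusted p = 0.236), and Gp2, with 0.53 (adjusted p = 0.318), were not called in these samples, nor were Agr2 (0.66, adjusted p = 0.199), Chst4 (0.63, adjusted p = 0.197) and Bpifb6 (0.66, adjusted p = 0.215). Called positive slopes were found in 2 of 11 tested members of the mucous list, Tff2 and Muc19, and in 1 of 20 of the serous list, Smgc. A slope of 1 means that a gene doubles when Bpifb2 doubles. Tff2 itself ran from 0.132 CPM in dysplasia sample B03 to 33.3 CPM in C09. The fit leaves only 4 residual degrees of freedom and rests on few samples. D03 and C01 were the only middle samples of their stages, so at a given stage they carry no slope. The only invasive carcinoma samples, C03 and C09, had the lowest and the highest Bpifb2, 0.676 and 50.4 CPM. Within the middle hyperplasia samples Bpifb2 ran from 1.09 to 6.54 CPM, and within dysplasia from 0.771 to 4.30 CPM. With C03 or C09 left out, 0 genes of either sign were called, so the called slopes rest largely on that pair. Without hyperplasia sample A04, 228 were called. Of the 432 genes, 431 could be tested, and 53.8% had a positive slope, against 50.4% of all 16072 genes tested in both comparisons.

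Apart from Smgc, no tested member of the serous list had a called slope on Bpifb2 in the middle samples. Lipf had a slope of -0.31 ± 0.49, Bpifb1 of -0.40 ± 0.48, Dmbt1 of -0.32 ± 0.45 and the salivary proline-rich protein gene Prb1, which was not on that list, of -0.52 ± 0.40, and none was called. Among these 10 samples, 6 had more Lipf than any poor sample, 4041 to 11820 CPM, while their Bpifb2 was 0.676 to 20.01 CPM. Dysplasia sample B07 had 11820 CPM of Lipf with 4.30 CPM of Bpifb2, and dysplasia sample B02 had 7016 CPM with 0.771 CPM. In contrast, rich sample C02 had 339 CPM of Lipf with 72.4 CPM of Bpifb2.

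That contrast led to a fit with both genes, added after these values had been seen, in which log2 Bpifb2, log2 Lipf and stage entered together over all 30 samples. It is a description, since Lipf was picked for its pattern. Of 17636 genes, 571 had a positive called slope on Bpifb2 at a given Lipf (3.24%), 57 had a positive called slope on Lipf at a given Bpifb2 (0.323%) and 16 had both. Of the 432 genes that rose in rich samples, 327 had the Bpifb2 slope alone, 25 the Lipf slope alone, 14 both and 65 neither. The 432 were called on the Bpifb2 split in 20 of these same samples, so a slope on Bpifb2 was favoured in advance. These counts therefore do not weigh Bpifb2 against Lipf. Leaving out each sample in turn gave 50 to 76 genes on Lipf and 155 to 629 on Bpifb2, and the lowest count, 155, came without B01.

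Gland genes differed in which of these slopes they had, and the division followed the mucous and serous lists only in part. Tff2 had slopes of 0.99 ± 0.03 on Bpifb2 and -0.05 ± 0.04 on Lipf, Smgc of 0.95 ± 0.03 and -0.003 ± 0.052, and Muc19 of 0.90 ± 0.03 and -0.05 ± 0.05. Bpifb1 had -0.02 ± 0.01 on Bpifb2 and 0.996 ± 0.014 on Lipf, Prb1 -0.04 ± 0.02 and 0.9985 ± 0.025, and Sbpl, a spermine-binding-protein-like gene, 0.02 ± 0.01 and 0.97 ± 0.02. Bpifa2 had -0.02 ± 0.04 and 0.97 ± 0.06, whereas Bpifb6, in the same cluster, had 0.88 ± 0.02 and -0.08 ± 0.05. Some genes had a called slope on each: Aqp5, the water channel of acini, had 0.39 ± 0.03 on Bpifb2 and 0.30 ± 0.04 on Lipf, and Pigr had 0.36 ± 0.03 and 0.49 ± 0.04. Muc5b and Gp2 leaned to Bpifb2, with 0.74 ± 0.03 and 0.73 ± 0.03, and had smaller slopes on Lipf, 0.22 ± 0.04 each. On the list of mucous secretions 8 members had a called slope on Bpifb2 and 2 on Lipf, against 9 and 11 on the list of serous secretions. Smgc, Bpifb6 and Gp2 are on the serous list, while Sval2, on the mucous list, had -0.004 on Bpifb2 and 0.98 on Lipf. On the acinar fluid secretion list 8 members had a called slope on Bpifb2 and 2, Aqp5 and Lrrc26, on Lipf, and the secretory transcription factors had 7 and 1, the last being Bhlha15.

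**Figure D4:**
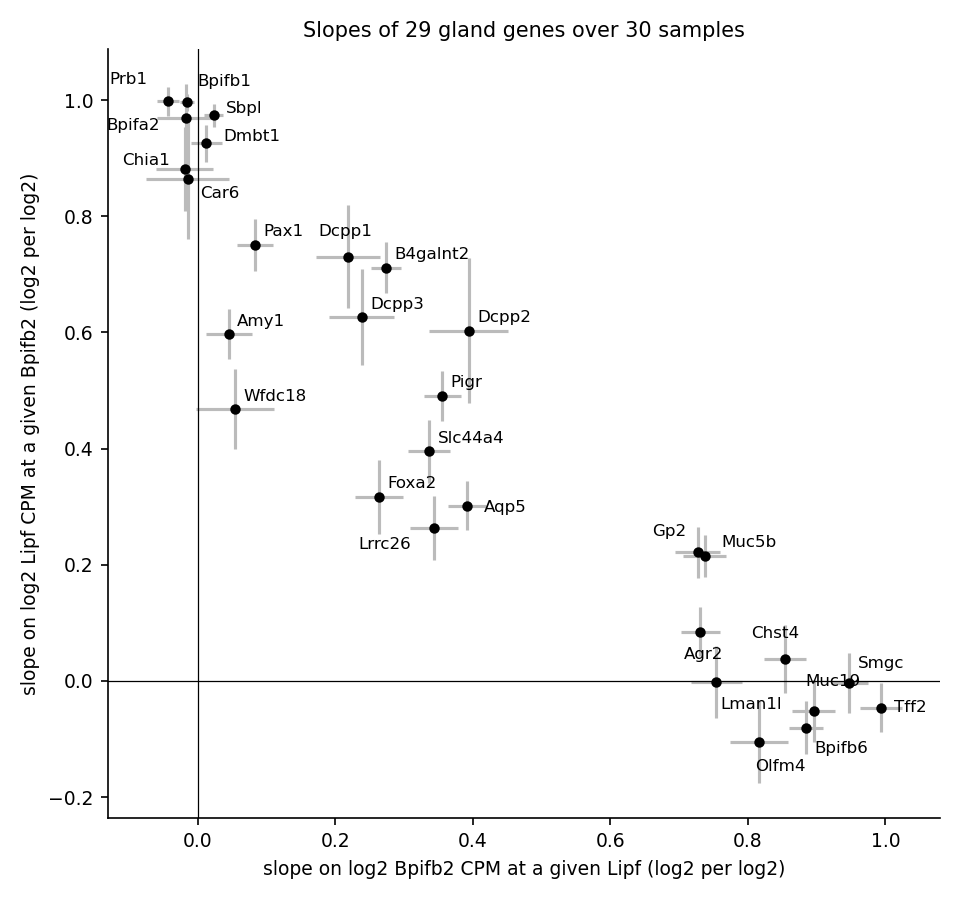
Slopes of 29 named gland genes on log2 Bpifb2 (horizontal) and log2 Lipf (vertical) from 1 fit over all 30 samples with stage as covariate, with bars of 1 SE. Tff2, Smgc and Muc19 lie near 1 on the horizontal axis and 0 on the vertical one, Bpifb1, Prb1 and Sbpl near 0 and 1, and Aqp5, Pigr and Foxa2 in between.

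Channels and receptors of fluid secretion rose in part. Of 13 tested members of that list, 8 rose and 0 fell, with a median log2 fold change of 0.73. Aqp5 had 3.78 CPM at the lowest, 36.2 CPM at the median and 134 CPM at the highest in rich samples, against 0.143, 0.435 and 1.97 CPM in poor samples, without overlap (log2 fold change 6.79 ± 0.64, adjusted p = 5.49e-06). Lrrc26, an accessory subunit of large-conductance potassium channels, rose by 6.05 ± 0.63, the potassium channel gene Kcnn4 by 3.36 ± 0.45 and the muscarinic receptor gene Chrm3 by 2.46 ± 0.40. Genes with higher levels in poor samples differed less: the chloride channel gene Ano1 had means of 38.0 CPM in rich and 23.5 CPM in poor samples (0.73 ± 0.15), and the cotransporter gene Slc12a2 had 129 CPM in rich and 88.0 CPM in poor samples (0.60 ± 0.15). Slc12a2 lost its call in 10 of 20 fits with a sample left out and in 5 of 11 other settings.

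Secretory transcription factors rose in 7 of 17 tested cases, and 0 fell. Bhlha15, which organises the secretory apparatus of serous cells, rose by 4.71 ± 0.50, Creb3l4 by 3.59 ± 0.47, Creb3l1 by 1.84 ± 0.29 and Spdef, a factor of mucous and goblet cell differentiation, by 2.77 ± 0.54. Foxa2, a forkhead factor that was not on the list, had 0.624, 1.87 and 4.88 CPM in rich samples against 0, 0.0403 and 0.203 CPM in poor samples (5.44 ± 0.55), and was chosen after its values were seen. Xbp1, a driver of endoplasmic reticulum expansion with wide expression, had means of 172 CPM in rich and 144 CPM in poor samples and was not called (0.32 ± 0.12, adjusted p = 0.258).

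The machinery of the secretory pathway rose in part, by smaller fold changes. On the list for endoplasmic reticulum import and folding, 4 of 31 members rose and 0 fell, against 2.69% of all tested genes that rose. The median was 0.20, and 29 of the 31 fold changes were above 0, against 47.4% of all genes. At an unadjusted p under 0.05 by edgeR, 13 of the 31 were higher and 0 lower, against 1266 higher and 535 lower of all 16073 genes. Txndc5, a disulfide isomerase, had means of 132 ± 41.7 CPM in rich and 85.2 ± 6.85 CPM in poor samples (SD, n = 10 each), a log2 fold change of 0.66 ± 0.14 by edgeR (adjusted p = 0.00902). The chaperone Hspa5 averaged 513 CPM in rich and 506 CPM in poor samples and was not called. For transport between endoplasmic reticulum and Golgi, 7 of 16 members rose and 0 fell, and 12 were higher and 0 lower at that unadjusted p. Kdelr3, a receptor that returns escaped chaperones, rose by 1.76 ± 0.27, the cargo protein gene Tmed3 by 1.01 ± 0.21 and the coat gene Sec23b by 0.53 ± 0.09.

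Genes of simple epithelium and ducts rose in part. On the list for simple epithelium and ducts, 7 of 14 members rose and 0 fell, with a median of 1.16. Krt18, a keratin of simple epithelia, had 6.601, 29.8 and 101 CPM in rich samples against 0.938, 2.02 and 15.6 CPM in poor samples (log2 fold change 3.60 ± 0.56), and 7 rich samples exceeded every poor sample. Cldn10, a tight junction claudin of secretory epithelia, rose by 4.23 ± 0.43 with no overlap. Kit, listed for ducts and for mast cells, rose by 1.27 ± 0.24, while the mast cell proteases Cma1 (-0.50) and Mcpt4 (-0.48) had fold changes below 0 and were not called. Krt7 (1.14 ± 0.47) and Krt19 (0.91 ± 0.43) were not called. Of 9 tested members of the myoepithelial and smooth muscle list, 2 rose and 0 fell, against 2.69% of all tested genes that rose. These were Cnn1, by 2.69 ± 0.41, and Actg2, by 1.45 ± 0.26. At an unadjusted p under 0.05 by edgeR, 7 of the 9 were higher and 0 lower, and DESeq2 called 3 higher. Acta2 had means of 92.2 CPM in rich and 58.8 CPM in poor samples without a call (edgeR, adjusted p = 0.192).

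**Figure D5:**
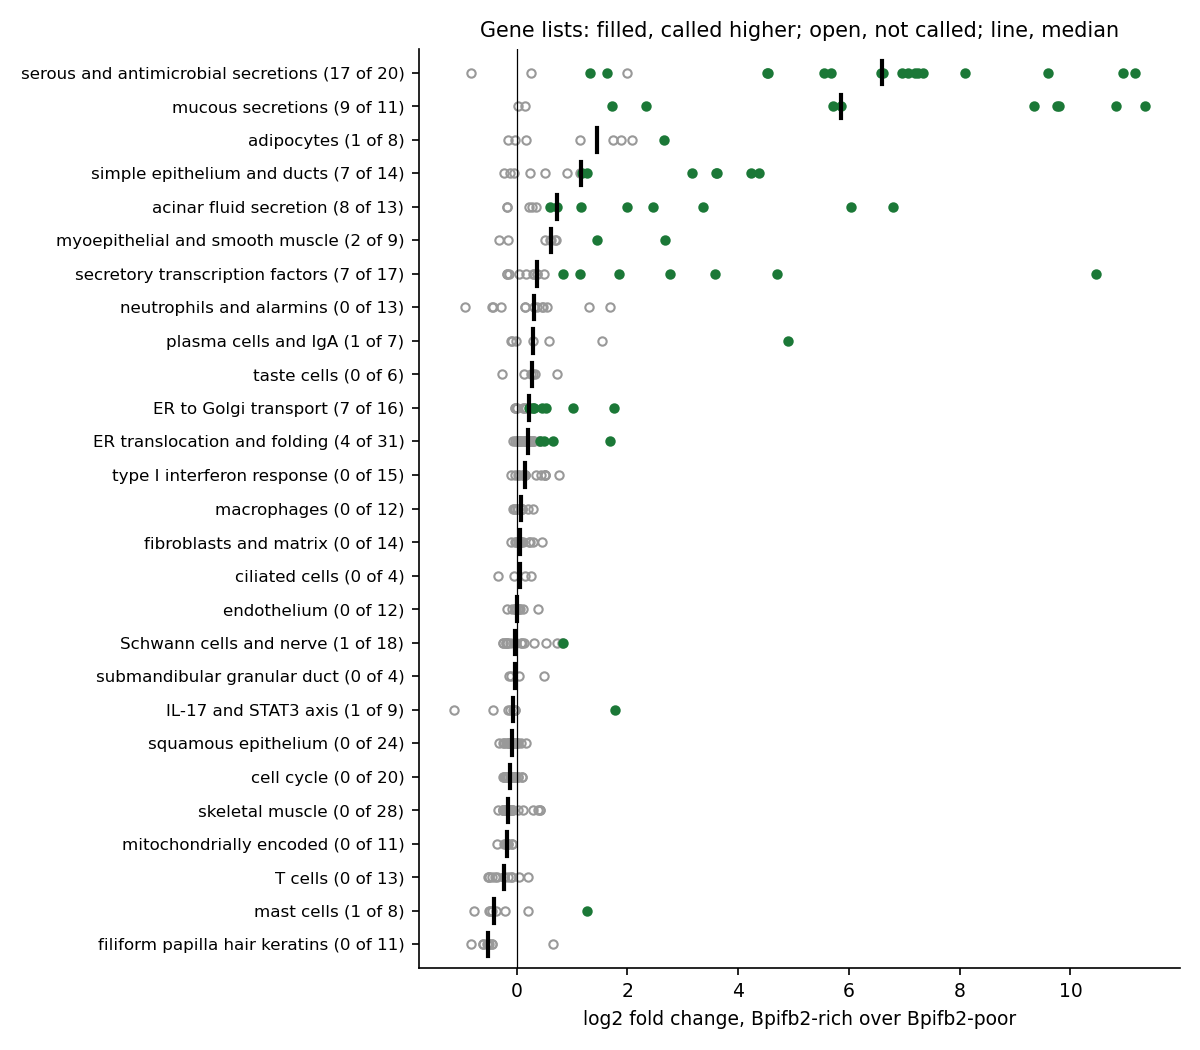
Log2 fold changes of Bpifb2-rich over Bpifb2-poor samples for the tested members of each gene list with at least 4 tested members, sorted by median (black line). Filled points rose and open points were not called, and the counts after each name give called and tested members. The secretion lists have medians of 6.59 and 5.85, and muscle, squamous and cell cycle lists have medians of -0.15, -0.08 and -0.11 with 0 called members.

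Genes of the granular ducts of the submandibular gland, a major gland, were not called, while Amy1, Bpifa2 and the Dcpp genes, whose products major glands secrete too, rose as given above. On the granular duct list, 4 of 18 members passed the filter and 0 were called by edgeR, with 1 at an unadjusted p under 0.05 and 0 by DESeq2 or limma-voom. As 2.69% of all tested genes rose, 0 of 4 is near the overall share. Klk1, a kallikrein of those ducts, reached 72.5 CPM in rich sample D01 and 119.8 CPM in poor sample B05. Poor sample D02 had 19.6 CPM and middle sample D03 had 20.8 CPM. The Klk1 medians were 1.30 CPM in rich and 0.352 CPM in poor samples. On the same list, Klk1b9 had 44.5 CPM in D03. Pancreatic acinar genes, 10 of them, were all under the filter, and their summed level was 0.344 to 1.36 CPM in rich and 0.321 to 0.879 CPM in poor samples.

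The antibody genes Igha, Igkc and Jchain had medians under 1 CPM in rich and in poor samples. Ccl28, a chemokine of salivary epithelium that attracts IgA-secreting cells, was the 1 called member among 7 tested on the plasma cell and IgA list, with 1.52, 15.7 and 43.6 CPM in rich samples against 0.0446, 0.501 and 1.42 CPM in poor samples (log2 fold change 4.90 ± 0.58). The IgA heavy chain gene Igha had 0.295, 0.538 and 21.6 CPM in rich samples against 0.201, 0.514 and 1.66 CPM in poor samples and was not called (adjusted p = 0.374). Only 3 rich samples exceeded every poor sample for Igha.

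Lists for the surrounding tissue showed no called decrease. Over all tested genes only 0.0373% fell and 2.69% rose, so 0 called on lists of this size does not set them apart. Skeletal muscle had 0 called of 28 (median log2 fold change -0.15), squamous epithelium 0 of 24 (-0.08), T cells 0 of 13 (-0.23), macrophages 0 of 12 (0.08), endothelium 0 of 12 (0.02), fibroblasts 0 of 14 (0.07) and the cell cycle 0 of 20 (-0.11). Summed over these 7 lists, 2 genes had an unadjusted p under 0.05 on the lower side and 1 on the higher side, and DESeq2 and limma-voom called 0. Muscle genes took 2.15% to 6.27% of counts in rich samples and 3.39% to 8.25% in poor samples, and mitochondrially encoded genes 4.78% to 10.7% and 5.95% to 13.7%. The hair-type keratins of filiform papillae had the lowest median, -0.52, with 1 of 11 fold changes above 0 and 0 called. Krt36, the most abundant of them, had 235, 672 and 1224 CPM in rich samples against 395, 909 and 1405 CPM in poor samples (-0.52 ± 0.26, adjusted p = 0.474), and its groups overlapped over most of their range. The part of sampling position in these values was not tested.

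Single genes were called on some lists with no other called member. Cfd, the adipsin gene of fat cells that other epithelia can also express, had 1.01, 6.18 and 27.3 CPM in rich samples against 0.719, 1.52 and 3.31 CPM in poor samples (log2 fold change 2.65 ± 0.51), while the fat cell genes Adipoq (1.75, adjusted p = 0.369) and Plin1 (1.15, adjusted p = 0.701) were not called. The adipocyte list as a whole had 1 called of 8, a median of 1.45 and 6 fold changes above 0. At an unadjusted p under 0.05 by edgeR, 3 of its members were higher and 0 lower. Its summed level was 456 to 1991 CPM in rich and 601 to 1437 CPM in poor samples. Much of that sum was Lpl, with 306 to 1309 CPM in rich and 430.5 to 1077 CPM in poor samples. Adipoq had 0.267, 1.27 and 6.17 CPM in rich samples against 0.0449, 0.417 and 5.34 CPM in poor samples. The part of fat cells in the gland values was not tested. Sox10, on the lists of secretory factors and of Schwann cells, rose by 0.83 ± 0.19, while the myelin gene Mbp (-0.20) was not called. Il19, a cytokine, rose by 1.78 ± 0.43 at means of 3.28 CPM in rich and 1.21 CPM in poor samples, and only 2 rich samples exceeded every poor sample. Its call was unstable: it was lost in 8 of 11 other settings, limma-voom and 8 against 8 samples among them, and in 8 of 20 fits with a sample left out, with adjusted p up to 0.782.

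The 6 genes that fell did so by small amounts or at low levels. Ston2, an endocytic adaptor, had 50.3 CPM at the lowest, 82.5 CPM at the median and 94.7 CPM at the highest in rich samples, against 75.1, 95.9 and 106 CPM in poor samples (log2 fold change -0.28 ± 0.06, adjusted p = 0.0074). The single-stranded DNA binding protein gene Ssbp2 had a log2 fold change of -0.24 ± 0.06 and Sh3rf2, an SH3 domain ring finger gene, of -0.23 ± 0.05. Alox8, a lipoxygenase of squamous epithelium, had 0.201, 1.24 and 2.05 CPM in rich samples against 0.0502, 2.60 and 7.40 CPM in poor samples (-1.25 ± 0.27, adjusted p = 0.0113). Bmpr1b, a BMP receptor, had -0.63 ± 0.14 and Aipl1, a co-chaperone, -0.99 ± 0.23, both at means under 10 CPM, and these 3 low genes were chosen after their values were seen. The groups overlapped in all 6 genes, and with single samples left out Ssbp2 lost its call in 10 of 20 fits and Sh3rf2 in 6.

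No single gene was called for a difference that varied with stage. A model in which the rich to poor difference could vary by stage called 0 genes by edgeR's quasi-likelihood test. At an unadjusted p under 0.05 there were 1285 of 16073 genes, a share above the 0.05 that chance alone would give. The rich group had only 1 normal and 1 dysplasia sample, so this test had little power, and it does not show that the difference was equal across stages.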

How the data were processed

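Per the submitters' processing notes, the tools were cutadapt 2.4 and STAR 2.7.2a with genome build GRCm38; the counting tool, strand setting and annotation release are not given in the sources used here. Libraries were stranded mRNA, per the labels. Raw counts per gene, whole numbers, were deposited by the authors in 1 table and used as they are. Symbols were found for 55141 of 55487 identifiers, with positions from GENCODE M21 on GRCm38. edgeR 4.0.16 in R 4.3.3 (TMM, filterByExpr on the split, robust quasi-likelihood) was fitted to the 20 samples compared with stage as a 5-level factor, leaving 14 residual degrees of freedom, and was tested on simulated data. Tests are two-sided, adjusted over all tested genes. For logs of Bpifb2 and Lipf, 0.5 counts replaced 0. Counting intervals cover counting error only. Code letters of samples follow stage, except that carcinoma in situ and invasive carcinoma share the letter C. Apart from those stages, a batch by letter and stage cannot be told apart.

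Members and 29 gene lists were chosen with earlier results of these data known. Named genes are the 3 markers, the 12 largest called changes in each direction that reach 10 CPM in a group, up to 4 called members per list or 2 of a list with none, and others chosen after their values were seen, including Lipf and the serous genes that follow it; some genes that the rule names are not reported here. DESeq2 1.42.0, limma 3.58.1 and other settings served as alternatives.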

Additional observations from a re-analysis of the deposited data

Results flagged for a closer look

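In 42 groups of 4 to 10 samples examined for a sample set apart from the rest by the size of its gap, 4 had such a gap, and chance gives about 1 in 20. Bpifb2 at 4040 CPM in dysplasia sample B01 stood apart above the other dysplasia samples. Ston2 was lowest, at 50.3 CPM, in the normal sample D01 of the rich group. Sh3rf2 was also lowest in D01, at 70.2 CPM, and in the poor group it was lowest in the normal sample D02, at 79.8 CPM.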

How the results depend on the processing

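The main comparison gave 432 genes higher and 6 lower in Bpifb2-rich samples. The higher count stayed within 1.5 times under RLE factors (428), no expression filter (576), DESeq2 (579), limma-voom (352), a model of all 30 samples with a level of their own for the middle ones (599), no stage covariate (289), 8 against 8 samples (433) and ranking by Muc5b (411), which shared 10 rich and 9 poor samples with the Bpifb2 ranking. It came to 201 higher when samples were split at the Bpifb2 median of each stage, 1018 for a slope on log2 Bpifb2 over all 30 samples and 242 at an adjusted p under 0.01. The lower count was 10 with no filter, 40 by DESeq2, 17 with 3 levels, 0 with no stage covariate, 2 at stage medians, 45 for the slope and 1 at an adjusted p under 0.01; the cause was not tested. Leaving out each sample in turn gave 228 (without B01) to 546 genes higher and 4 to 18 lower.

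For the 65 named genes that were called, 11 other settings, without the replicate block given below, gave 707 values. Of these, 618 kept their direction and call, 89 lost the call and 0 changed sign. Leaving out each sample gave 1300 values, with 79 calls lost and 0 sign changes. In the middle samples, 29 genes followed Bpifb2 in either direction, 1 with no stage covariate, and 0 to 228 with 1 sample left out. The counts on Bpifb2 and Lipf together ran from 155 to 629 and from 50 to 76 with 1 sample left out.

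Samples that share a number in their labels are not said to be paired. With that number as a replicate block, 35 genes were higher and 0 lower. Of the 65 named genes that were called, 21 kept the call under this block, 44 lost it and 0 changed sign. Over 31 same-numbered pairs, deviations correlated at -0.593 to 0.472, and 11 pairs were over 0.1. Of 30 samples, 3 correlated best with their own number. With no reference level for unpaired samples, these values do not settle whether the number pairs samples.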
